A study of Mus musculus with 16 samples.

Results

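B cells lacking Gtf2i were compared between the follicular (FO) and the marginal zone (MZ) subset of the spleen, to describe which of the RNA programs that separate the 2 subsets persisted without this gene. The comparison held 4 of the 16 samples of the series, namely the 2 cKO FO and the 2 cKO MZ RNA-seq libraries, and 14761 of the 27928 genes of the deposited table, those with a mean of at least 10 normalized counts over all 8 RNA libraries. The cKO mice were C57BL/6 with the genotype Gtf2i fl/fl and a Cre allele that deletes the floxed Gtf2i alleles in B lineage cells. The FO and MZ libraries of the cKO carry the same alleles and were labelled apart by the subset sorted. The WT mice were C57BL/6 with no Cre, so between the genotypes the presence of Cre and the loss of Gtf2i cannot be told apart. Mice were 8 to 12 weeks old, splenic B cells were enriched by negative selection, and FO cells were sorted as CD21lo CD23hi and MZ cells as CD21hi CD23lo. Whether the 2 libraries of a group came from separate mice is not stated in the sources used here, so p-values measure the spread between these libraries, which may be technical.

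FO B cells recirculate through blood and lymphoid follicles and mostly answer protein antigens with T cell help. MZ B cells stay next to the marginal sinus of the spleen, respond quickly to blood-borne microbial products, and need Notch2 signaling from the stroma to form. Gtf2i encodes TFII-I, a widely expressed transcription factor that also takes part in signaling from the B cell receptor.

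The deposited values are normalized counts, that is whole reads scaled by a size factor for each library, and the 4 cKO libraries held between 21546552 and 23752077 reads on genes. Differences below are given on the log2(normalized count + 1) scale as FO minus MZ, so a negative value means higher in MZ, and they come from a single limma fit of the 8 libraries, which share one estimate of the spread. Gene coordinates are those of GRCm38 (GENCODE M21). Genes counted as called when the p-value, adjusted by Benjamini-Hochberg over all genes tested, was 0.05 or lower and the subsets differed at least 1.5-fold. Unless WT is named, values are those of the cKO libraries, with replicate 1 of a subset before replicate 2. An exact permutation test on 2 libraries against 2 cannot reach 0.05 for any one gene, so every call rests on the spread that limma estimates across genes.

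The targeted gene, Gtf2i (ENSMUSG00000060261.15, chromosome 5 from 134237834 to 134314760, minus strand), had 1523 and 1531 normalized counts in FO and 1782 and 1889 in MZ. It had 2039.8 and 1992 in WT FO and 2864 and 2471 in WT MZ, so every cKO library was below every WT library. These counts sum reads of all exons, floxed or not, and so do not measure the extent of deletion. Between the cKO subsets Gtf2i had a log2 difference of -0.26 (standard error 0.095, limma adjusted p = 0.0922), which did not pass the cutoff.

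Libraries of 1 group were not alike in every respect. Xist, the RNA of the inactive X chromosome, stood at 14748 normalized counts in cKO FO replicate 1 and between 21.7 and 89.7 in the remaining 3. The Y-linked RNA helicase gene Ddx3y had 2682 and 4439 normalized counts in FO and 5022 and 5514 in MZ, lowest in the same replicate. The WT libraries held Xist at 25929.5 or more and Ddx3y at 1.90 or less, so sex-linked RNA divided the genotypes and its part in their differences cannot be told apart from that of the genotype. Erythroid and granulocyte RNA was high in cKO MZ replicate 1 and RNA of neural genes in cKO MZ replicate 2, with values given further on. Without the genes on X and Y, 793 genes were called higher in FO and 1187 in MZ, against 818 and 1208 with them.

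The libraries matched their labels for the B lineage and for the subset. The 10 pan-B-cell genes, among them Cd79a, Cd79b, Ms4a1, Cd22, Cd37, Ptprc, Pax5, Ebf1 and Blk, summed to between 294603 and 332993 normalized counts in each cKO library, and 1 of these 10 genes was called, the Src family kinase Blk, higher in MZ. The complement receptor gene Cr2, which encodes CD21 (ENSMUSG00000026616.16, chromosome 1 from 195136811 to 195176716, minus strand), had 22942 and 25356 normalized counts in FO and 86953 and 97087 in MZ, and the IgE receptor gene Fcer2a, which encodes CD23 (ENSMUSG00000005540.10, chromosome 8 from 3681737 to 3694175, minus strand), had 32729 and 41973 normalized counts in FO and 6245 and 6708 in MZ. Both proteins were used to sort the cells, so these values check the gates and are no finding. In such bulk libraries, fewer cells of a type and less RNA per cell cannot be told apart.

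The cKO subsets differed widely. Of the genes tested, 818 (5.54%) were called higher in cKO FO and 1208 (8.18%) in cKO MZ, and the 2 libraries of each subset did not overlap for any called gene. Without a test, both FO libraries were above both MZ libraries for 33.1% of the genes and below them for 32.0%. The MZ side held the larger differences. At 8-fold or more, 184 genes were called higher in MZ and 36 in FO, and at 16-fold or more 87 were called higher in MZ and 1 in FO. The counts fell to 435 and 638 without cKO MZ replicate 1, to 481 and 729 without cKO FO replicate 1, and the MZ count fell to 764 without cKO MZ replicate 2.

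Receptors and surface proteins that are textbook marks of MZ cells were among the genes called higher in cKO MZ. The sphingosine-1-phosphate receptor S1pr3 (ENSMUSG00000067586.4, chromosome 13 from 51408639 to 51422797, plus strand), which helps to hold MZ cells near the sinus, had 207 and 189 normalized counts in FO and 7152 and 9018 in MZ, a log2 difference of -5.34 (standard error 0.156, limma adjusted p = 5.73e-06). The tetraspanin Cd9 (ENSMUSG00000030342.8, chromosome 6 from 125460266 to 125494791, minus strand) had 80.6 and 78.5 normalized counts in FO and 1596 and 1309 in MZ, with a log2 difference of -4.17 (standard error 0.139, limma adjusted p = 7.58e-06). Each MZ library was far above each FO library for both genes, and neither gene was used in the sort. The lipid-presenting molecule Cd1d1 (ENSMUSG00000028076.12, chromosome 3 from 86995834 to 86999441, minus strand) had 986 and 1217 normalized counts in FO and 7162 and 8877 in MZ, and the scavenger receptor Cd36 (ENSMUSG00000002944.15, chromosome 5 from 17781690 to 17888801, minus strand) had 647 and 623 normalized counts in FO and 5116 and 4814 in MZ. Their differences of -2.86 and -2.96 were also far larger than the gap between replicates (limma adjusted p = 4.16e-05 and 8.24e-05). All 15 genes of the MZ identity list were called higher in cKO MZ, with a median difference of -2.96 against 0.00 over all genes tested, and the same 15 were called in WT with a median of -2.96. All 15 were also called when any one of the 8 libraries was left out. The list includes Cr2, whose protein was used in the sort, and without it 14 of 14 were called, with a median of -3.42 in cKO and -3.30 in WT. The list was chosen with earlier results of these data known, so its counts describe these genes and are not independent evidence.

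Further MZ identity genes were at low levels in FO. The atypical chemokine receptor Ackr3, a scavenger of CXCL12, had 52.6 and 33.2 normalized counts in FO and 3551 and 2675 in MZ. Asb2, which encodes a subunit of a ubiquitin ligase, had 24.6 and 42.3 normalized counts in FO and 2406 and 2460.3 in MZ, and Rgs10, a brake on G protein signaling, had 41.4 and 54.4 normalized counts in FO and 1221 and 1333 in MZ. These are differences of -6.17, -6.19 and -4.72. Fcrl5, an inhibitory receptor of the Fc receptor-like family, had 504 and 424 normalized counts in FO and 7175 and 6494 in MZ, and the membrane repair protein Myof had 534 and 624 normalized counts in FO and 9479.7 and 10289.8 in MZ. The remaining members, Dtx1, Mzb1, Plac8, Il9r and Tm6sf1, differed by between -2.32 and -1.75.

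The FO identity list held homing receptors, cytokine receptors and transcription factors. Of its 12 genes, 10 were called higher in cKO FO and 0 higher in cKO MZ, with a median difference of 1.52, and 8 of the 12 were called in WT with a median of 1.38. Without Fcer2a, whose protein was used in the sort, 9 of 11 were called, with a median of 1.51. This list too was chosen with earlier results of these data known, so its counts are a description. Without cKO MZ replicate 1, 6 of the 12 were called. The chemokine receptor Ccr7 (ENSMUSG00000037944.8, chromosome 11 from 99144196 to 99155077, minus strand), which guides lymphocytes to T cell zones, had 16631 and 14218 normalized counts in FO and 3121 and 3997 in MZ, a log2 difference of 2.12 (standard error 0.33, limma adjusted p = 0.00436). Both FO libraries were above both MZ libraries. The interleukin 4 receptor chain Il4ra (ENSMUSG00000030748.9, chromosome 7 from 125552120 to 125579474, plus strand) had 9357 and 9649.6 normalized counts in FO and 3220.4 and 3467 in MZ, a log2 difference of 1.51 (standard error 0.0965, limma adjusted p = 0.000127), with replicates that nearly coincided. The transcriptional repressor Bach2, which holds back plasma cell differentiation, had 9468 and 8345 normalized counts in FO and 2296 and 2417 in MZ, and Zfp318, which promotes expression of IgD, had 16996 and 14907 normalized counts in FO and 3945 and 4662 in MZ. Ighd itself, the delta heavy chain gene, had 56715 and 70518 normalized counts in FO and 18171 and 18508 in MZ, and was the one member called of 11 tested heavy and light chain constant genes. That is 9.09% of them, beside the 5.54% of all genes tested called higher in FO. The follicle homing receptor Cxcr5 had 6885 and 8816 normalized counts in FO and 8876 and 8013 in MZ, which overlapped. The transcription factor Ets1 had 29563 and 36361 normalized counts in FO and 22111 and 23667 in MZ, higher in both FO libraries but under 1.5-fold. The call of Ighd was lost without any one of the 4 cKO libraries, with differences of between 1.63 and 1.94 there.

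**Figure D1:**
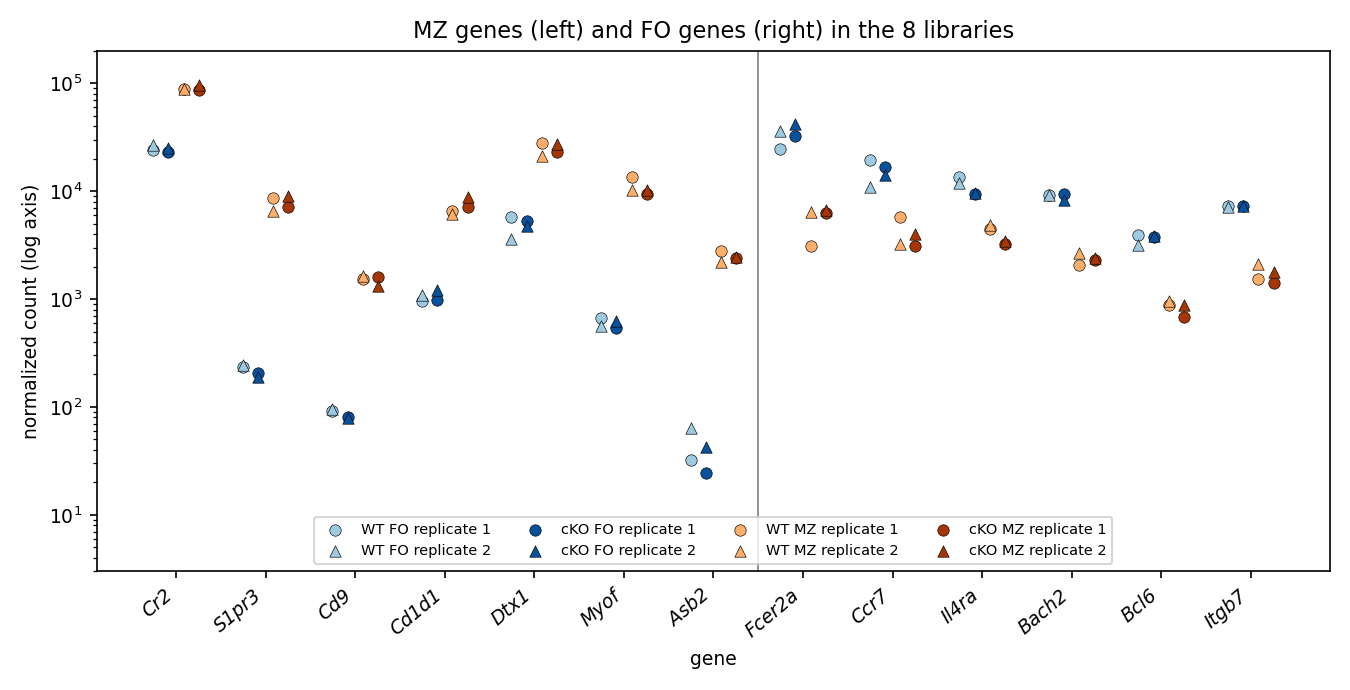
Normalized counts on a log axis (y) of 7 MZ genes and 6 FO genes (x) in each of the 8 RNA libraries, with a point for each library (circles replicate 1, triangles replicate 2). For every gene shown the cKO FO and cKO MZ libraries sit apart, on the same side as in WT, for example S1pr3 at 207 and 189 in FO and 7152 and 9018 in MZ of the cKO.

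The same comparison in the 4 WT libraries, which share no sample with the cKO, gave the reference for what persisted. In WT 682 genes (4.62%) were called higher in FO and 1094 (7.41%) in MZ. Of the 682 WT FO genes, 585 were also called higher in cKO FO, which is 85.8% of the WT list and 71.5% of the cKO list, where 5.54% of all genes tested were called in that direction. Of the 1094 WT MZ genes, 930 were also called higher in cKO MZ, 85.0% of the WT list and 77.0% of the cKO list, beside 8.18% of all genes. Of the 97 WT FO genes that were not called in cKO, 92 still had both FO libraries above both MZ libraries, and of the 164 such WT MZ genes 155 had both MZ libraries above both FO libraries. When each of the 8 libraries was left out in turn, the shared counts ranged from 383 to 545 and from 559 to 870, lowest without cKO MZ replicate 1. Both genotypes took the spread of each gene from a shared fit. In separate fits of the 4 WT and the 4 cKO libraries, the WT lists held 378 FO and 636 MZ genes, and 358 and 590 of these were called in the same direction in cKO, which is 94.7% and 92.8% of the WT lists and 36.9% and 43.1% of the cKO lists.

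Persistence was not limited to the strongest genes. Of the WT FO genes, 247 of 292 with a WT difference of 1.5 to 2-fold, 245 of 289 of 2 to 4-fold, 75 of 83 of 4 to 8-fold and 18 of 18 of 8-fold or more were called in cKO FO. On the MZ side the counts were 208 of 300, 376 of 427, 194 of 209 and 152 of 158. The cKO difference divided by the WT difference had a median of 1.05 over the WT FO genes, with quartiles of 0.905 and 1.15, and of 0.992 over the WT MZ genes, with quartiles of 0.862 and 1.13. One gene of each WT program, Gpr152 for FO and Slc18a1 for MZ, had a cKO difference of the opposite sign. As a description across genes, which are not independent replicates, the cKO and WT differences had a Pearson correlation of 0.887 and a Spearman correlation of 0.831 over the 14761 genes tested.

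**Figure D2:**
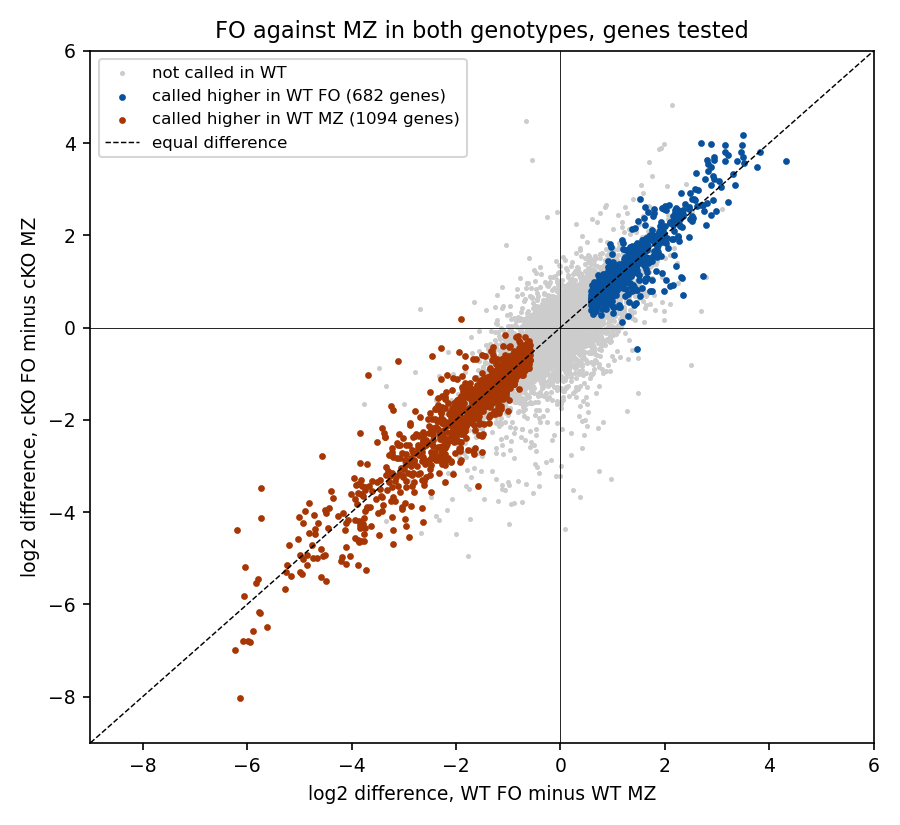
Log2 difference between FO and MZ in WT (x) and in cKO (y) for each of the 14761 genes tested, with the genes called in WT colored and the dashed line where the 2 differences are equal. The 682 WT FO genes and the 1094 WT MZ genes lie along the line, and 1 of each has a cKO difference of the opposite sign.

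The difference between the genotypes was tested itself, as the interaction of genotype and subset. Limma called 0 genes (0.0% of those tested), as did DESeq2 and edgeR on the recovered reads. An unadjusted limma p under 0.05 was found for 94 of 14761 genes. That is a far smaller share than the 0.05 that evenly spread p-values would give. The limma test of the interaction was therefore conservative, and its 0 calls are weak evidence. Why its p-values ran high was not tested. A missing call does not show that the genotypes act alike. The intervals give the range left by the same fit, and so may be too wide. The 95% interval of the interaction lay within 2-fold for 8943 genes (60.6%), for 13 of the 15 MZ identity genes and for 6 of the 12 FO identity genes. For S1pr3 the interval ran from -0.90 to 0.13, for Cd9 from -0.55 to 0.36, for Il4ra from -0.26 to 0.37, and for Ccr7 from -0.72 to 1.45 on the log2 scale. The smallest p-values of a positive interaction, a difference shifted toward FO in cKO, were those of Eif2s3y, Tubb2b, Aldh1l1, Slc18a1 and Bcl3, and those of a shift toward MZ included Cyp27b1, Col20a1, Gpr152 and the phosphatase gene Ptp4a1. Eif2s3y lies on the Y chromosome. Aldh1l1 had the sign of a higher MZ level in both genotypes, with differences of -0.45 in cKO and -2.29 in WT. All genes named here had a limma adjusted p of 1.00 for the interaction. Bcl3, an atypical inhibitor of NF-kB, had 1635 and 1641 normalized counts in FO and 894 and 966 in MZ, and 1436 and 1817 in WT FO and 1316 and 1367 in WT MZ. The FO and MZ libraries of Bcl3 were apart in both genotypes, by 0.82 in cKO and 0.27 in WT.

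Notch signaling works through receptor cleavage, after which the intracellular part joins the DNA-binding protein RBPJ and a Mastermind coactivator at target promoters. Of the 26 tested genes of this pathway, 5 were called higher in cKO MZ and 2 in cKO FO, the same numbers as in WT. These are 19.2% and 7.69% of the list, beside 8.18% and 5.54% of all genes tested, so the FO share was near that of all genes. The called MZ genes were targets and regulators. The classical target Hes1 (ENSMUSG00000022528.8, chromosome 16 from 30064384 to 30067796, plus strand) had 1133 and 1135 normalized counts in FO and 2868 and 3689 in MZ, a log2 difference of -1.52 (standard error 0.149, limma adjusted p = 0.000608). Its relative Hes5 (ENSMUSG00000048001.7, chromosome 4 from 154960923 to 154962371, plus strand) had 19.0 and 33.2 normalized counts in FO and 114 and 121 in MZ, a low level but with a log2 difference of -2.17 (standard error 0.404, limma adjusted p = 0.00905). The Deltex genes Dtx1, Dtx3 and Dtx4, which encode ubiquitin ligases of the pathway, differed by -2.32, -0.99 and -1.83. Dtx1 is also on the MZ identity list. The call of Hes5 was lost without cKO FO replicate 1, cKO MZ replicate 1 or cKO MZ replicate 2, with differences of between -2.22 and -1.79 there. On the FO side were Lfng, a glycosyltransferase that modifies Notch receptors, with 1907 and 2149 normalized counts in FO and 599 and 678 in MZ, and the coactivator Maml3, with 526 and 527 normalized counts in FO and 158 and 233 in MZ. The receptor Notch2 (ENSMUSG00000027878.11, chromosome 3 from 98013527 to 98150361, plus strand) had 18844 and 16572 normalized counts in FO and 13801 and 15140.3 in MZ, a log2 difference of 0.29 (standard error 0.102, limma adjusted p = 0.0862) under the fold cutoff, and Rbpj had 526 and 508 normalized counts in FO and 518 and 632 in MZ, with libraries that overlapped. The proteases Adam10 and Adam17 and the gamma-secretase genes Psen2, Ncstn and Aph1a did not pass the cutoff.

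Promoters of 2 of the genes higher in cKO MZ are shown because both hold the RBPJ core motif GTGGGAA. Each sequence is the 250 bases before the RefSeq start (GRCm38.p6), 5′ to 3′ on the strand of the gene, with GTGGGAA or its reverse complement in capitals. The Hes5 window is chr4:154960673-154960922 on the plus strand, where it overlaps the antisense transcript Gm20421, and holds the motif from 226 and from 83 bases before the start. The Cr2 window is chr1:195176720-195176969 on the minus strand, overlaps no annotated gene and holds it from 221 bases before the start.
Hes5: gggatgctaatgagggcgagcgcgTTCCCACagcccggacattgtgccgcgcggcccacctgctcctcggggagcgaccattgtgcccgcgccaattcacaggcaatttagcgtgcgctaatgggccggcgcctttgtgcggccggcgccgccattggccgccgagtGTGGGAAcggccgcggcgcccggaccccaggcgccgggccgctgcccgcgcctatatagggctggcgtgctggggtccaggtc
Cr2: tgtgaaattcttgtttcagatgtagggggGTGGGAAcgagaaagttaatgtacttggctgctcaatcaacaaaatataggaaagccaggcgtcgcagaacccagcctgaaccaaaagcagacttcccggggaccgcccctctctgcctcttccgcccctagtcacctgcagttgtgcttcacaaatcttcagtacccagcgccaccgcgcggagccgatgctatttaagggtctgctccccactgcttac
Searched on both strands, GTGGGAA stood in 5.06% of the 7863 such windows of tested genes with 1 RefSeq promoter, in 5.49% of the 437 windows of genes called higher in cKO FO and in 6.45% of the 698 windows of genes called higher in cKO MZ. Lfng, which was higher in FO, also held it, and Dtx1 and S1pr3 did not. A match is a description of these letters and not of binding.

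Receptors that place B cells in the spleen were split between the subsets. Of 26 tested homing receptors and integrins, 8 were called higher in cKO FO and 6 in cKO MZ, with 7 and 6 in WT, and the MZ count was 3 without cKO FO replicate 1. The calls in cKO FO and cKO MZ were 30.8% and 23.1% of the list, beside 5.54% and 8.18% of all genes tested. Beside S1pr3 and Ackr3, the MZ side held S1pr1 with 8617 and 9445 normalized counts in FO and 13698 and 14474 in MZ, the lysophosphatidylserine receptor Gpr34, and the integrin genes Itgal (the LFA-1 alpha chain) and Itgb1. Gpr34 had 33.6 and 80.5 normalized counts in FO and 602 and 465 in MZ, with FO replicates more than a factor of 2 apart. The FO side included Ccr7, the CXCL12 receptor Cxcr4 with 20344 and 11384 normalized counts in FO and 4569 and 5713 in MZ, and S1pr4 with 2197 and 3139 normalized counts in FO and 831 and 815 in MZ. It also included the integrin genes Itgb7, with 7277 and 7209 normalized counts in FO and 1416 and 1768 in MZ, and Itga6, with 1269 and 849 normalized counts in FO and 184 and 169 in MZ, as well as Itgb3 and the lysophosphatidylserine receptor Gpr174. Itgb7 pairs with the alpha4 chain that takes lymphocytes to the gut, and its difference was 2.19 (limma adjusted p = 0.000191). The call of Cxcr4 was lost without any one of the 4 cKO libraries, with differences of between 1.16 and 1.99 there. The call of S1pr4 was lost without cKO FO replicate 2, cKO MZ replicate 1 or cKO MZ replicate 2, with differences of between 1.42 and 1.69 there. The call of Gpr34 was lost without cKO FO replicate 1, cKO MZ replicate 1 or cKO MZ replicate 2, with differences of between -3.51 and -2.70 there. The call of S1pr1 was lost without cKO FO replicate 1, with difference of -0.58 there. That of Cxcr4 was also lost with quantile normalization and without the filter on low values. The oxysterol receptor Gpr183, the chemokine receptor Ccr6 and the cannabinoid receptor Cnr2 overlapped between the subsets.

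Complement and Fc receptor genes were called in both directions, and innate sensing genes to MZ alone. Of 14 tested complement and Fc receptor genes, 4 were called higher in cKO MZ and 3 in cKO FO, and the lists share Cr2, Fcer2a and Fcrl5 with the identity lists. These are 28.6% and 21.4% of the genes, beside 8.18% and 5.54% of all genes tested. Cd59a, an inhibitor of the membrane attack complex, had 6.72 and 14.1 normalized counts in FO and 195 and 198 in MZ, while the complement decay-accelerating gene Cd55 had 21165 and 24019.9 normalized counts in FO and 5681 and 6263 in MZ, so the 2 regulators pointed opposite ways. Of 25 tested innate sensing genes, 6 were called higher in cKO MZ (24%, beside 8.18% of all genes tested) and 0 in cKO FO. In WT the counts were 7 and 0. The double-stranded RNA sensor Tlr3 (ENSMUSG00000031639.12, chromosome 8 from 45395665 to 45411080, minus strand) had 118 and 117 normalized counts in FO and 1147 and 997 in MZ, a log2 difference of -3.18 (standard error 0.154, limma adjusted p = 3.86e-05). The single-stranded RNA sensor Tlr7 had 1197 and 1338 normalized counts in FO and 3719.7 and 3285 in MZ, and the Toll-like receptor homolog Cd180 had 6293 and 8299 normalized counts in FO and 14639 and 17377 in MZ. Ly96, which encodes the lipopolysaccharide-binding partner of TLR4, and the bacterial cell wall sensors Nod1 and Nod2 differed by -1.92, -0.66 and -1.98. Tlr4 itself had 460.2 and 623 normalized counts in FO and 833 and 588 in MZ, which overlapped, and Tlr9 had 1925 and 2694 normalized counts in FO and 3109 and 3367 in MZ with a limma adjusted p of 0.262. The call of Tlr7 was lost without cKO FO replicate 1 or cKO MZ replicate 1, with differences of between -1.39 and -1.38 there.

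**Figure D3:**
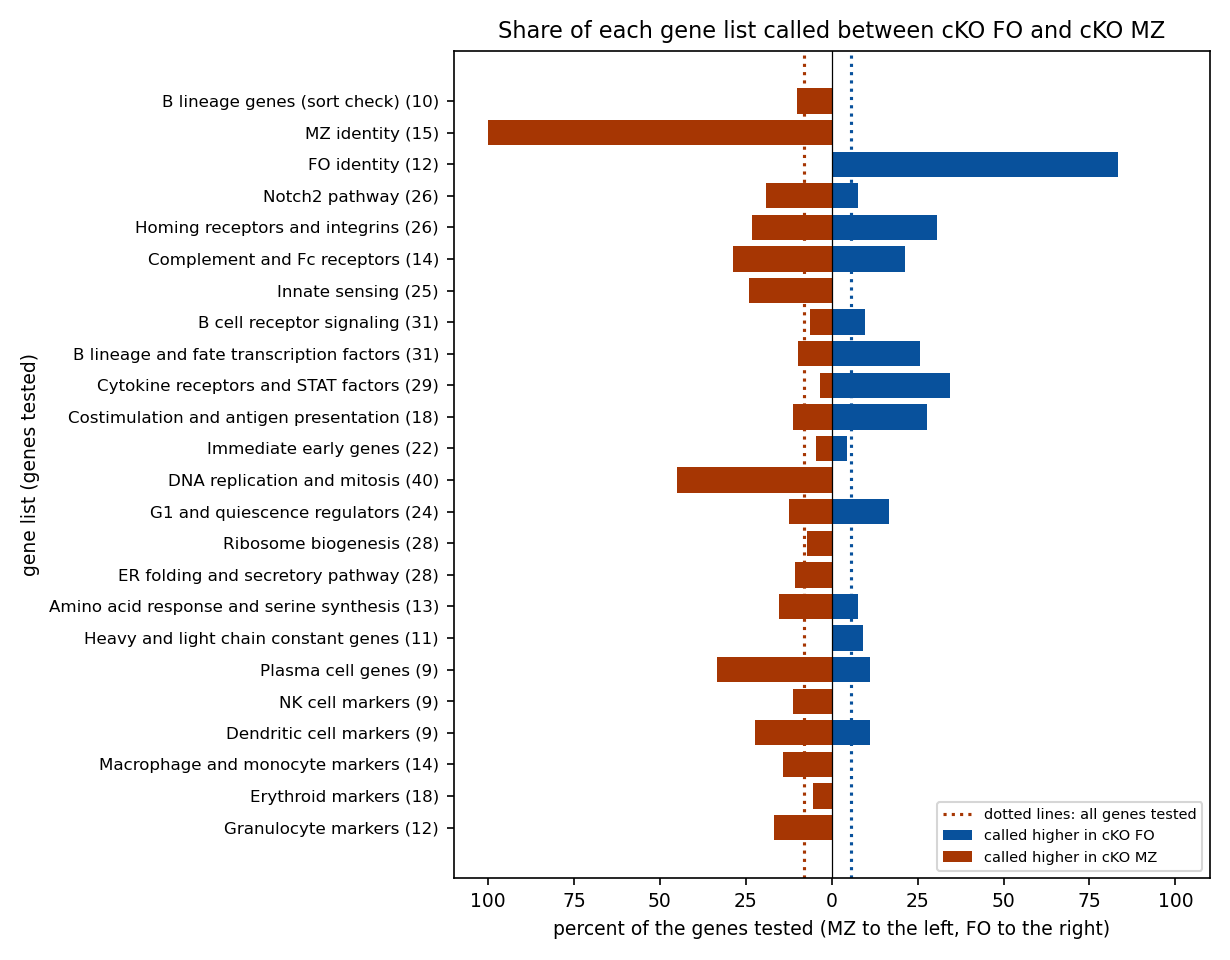
Percent of the tested genes of each list (y, number tested in parentheses) called higher in cKO FO (bars to the right) or in cKO MZ (bars to the left), with dotted lines at the 5.54% and 8.18% of all genes tested. The bars of the MZ identity list (15 of 15) and the FO identity list (10 of 12) are the longest, each with a gene of the sort in it (Cr2 and Fcer2a), followed by DNA replication and mitosis (18 of 40, to MZ). All lists were chosen with earlier results of these data known.

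Of 31 tested B lineage and fate transcription factors, 8 were called higher in cKO FO (25.8%, beside 5.54% of all genes tested) and 3 in cKO MZ (9.68%, beside 8.18%). With quantile normalization the counts were 5 and 4, and without cKO MZ replicate 1 the FO count was 4, while without cKO MZ replicate 2 the MZ count was 1. Bcl6 (ENSMUSG00000022508.5, chromosome 16 from 23965052 to 23988852, minus strand), the repressor needed for germinal centers, had 3741 and 3860.1 normalized counts in FO and 688 and 887 in MZ, a log2 difference of 2.28 (standard error 0.147, limma adjusted p = 0.000129). The HMG-box factor Lef1 had 123 and 118 normalized counts in FO and 14.0 and 10.3 in MZ, and the chromatin organizer Satb1 had 8708 and 5890.2 normalized counts in FO and 2156 and 2517 in MZ. Klf2, Foxo1, Mef2c and Runx1 differed by 1.39, 0.72, 1.11 and 0.60. The MZ side held Prdm1, the driver of plasma cell differentiation, with 134 and 80.5 normalized counts in FO and 322 and 351 in MZ, Id2, an inhibitor of E proteins, with 221 and 151 normalized counts in FO and 797 and 602 in MZ, and Runx3. The lineage factors Ebf1, Tcf3, Spib, Pou2f2 and Irf4 were not called, and Irf4 had 27108 and 25256 normalized counts in FO and 22260.4 and 34149 in MZ. The calls of Klf2, Lef1 and Prdm1 were lost without any one of the 4 cKO libraries, with differences of between 1.23 and 1.54, between 3.02 and 3.42 and between -2.05 and -1.32 there. The call of Runx1 was lost without cKO FO replicate 1 or cKO MZ replicate 1, with differences of between 0.48 and 0.52 there. The call of Satb1 was lost without cKO MZ replicate 1, with difference of 1.51 there. With quantile normalization the calls of Klf2, Prdm1, Runx1 and Foxo1 were lost, and that of Klf2 also with edgeR, without the filter on low values and with a pseudocount of 0.5.

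Of 29 tested cytokine receptor, Jak and Stat genes, 10 were called higher in cKO FO (34.5%, beside 5.54% of all genes tested) and 1 in cKO MZ (3.45%, beside 8.18%), with 6 and 1 in WT. The FO count was 5 without cKO MZ replicate 1, 6 without cKO FO replicate 1 and 6 without cKO MZ replicate 2. Beside Il4ra the FO genes were the receptor genes Il21r, Il6ra, Il10ra, Ifnar1 and Tnfrsf13c (the BAFF receptor) and the signal transducers Stat4, Stat6, Jak1 and Jak2. Il21r had 5749.5 and 6374 normalized counts in FO and 2497 and 2619 in MZ, and Il6ra had 1748 and 1673 normalized counts in FO and 442 and 651 in MZ. These are differences of 1.24 and 1.67, and the others lay between 0.61 and 1.51. The call of Il10ra was lost without cKO FO replicate 1, cKO MZ replicate 1 or cKO MZ replicate 2, with differences of between 0.35 and 0.67 there. It was also lost with quantile normalization. The MZ gene was the interleukin 9 receptor Il9r, with 4284 and 4549 normalized counts in FO and 23286 and 17360.4 in MZ. Of 18 costimulation and antigen presentation genes, 5 were called higher in cKO FO (27.8%, beside 5.54% of all genes tested). In cKO MZ 2 were called higher (11.1%, near the 8.18% of all genes tested). The FO genes were Icosl, Cd83, the class II transactivator Ciita and the class II peptide-loading genes H2-DMb1 and H2-Ob, of which 1 was called without cKO MZ replicate 1 and 3 without cKO FO replicate 1 or 2. Cd80, a ligand of CD28, had 32.5 and 27.2 normalized counts in FO and 141 and 103 in MZ, and together with Cd1d1 made up the MZ side, of which 1 was called without cKO FO replicate 2 or cKO MZ replicate 1. The call of Cd80 was lost without cKO FO replicate 1, cKO FO replicate 2 or cKO MZ replicate 1, with differences of between -2.11 and -1.76 there.

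Of 31 tested genes of B cell receptor signaling, 3 were called higher in cKO FO (Pik3cd, Prkcb and Rasgrp3) and 2 in cKO MZ (Blk and the tetraspanin Cd81), with a median difference of 0.03. These are 9.68% and 6.45% of the list, near the 5.54% and 8.18% of all genes tested, and with quantile normalization 1 was called in FO and 4 in MZ. The FO count was 0 without cKO MZ replicate 1 and 1 without cKO FO replicate 2. Blk had 13343 and 14463 normalized counts in FO and 24723 and 25288 in MZ, and Prkcb, the protein kinase C beta of this pathway, had 10631 and 10936 normalized counts in FO and 6503 and 6630.3 in MZ. Of 24 tested regulators of G1 and quiescence, 4 were called higher in FO and 3 in MZ. These are 16.7% and 12.5% of the list, beside 5.54% and 8.18% of all genes tested. The growth regulator Myc (ENSMUSG00000022346.15, chromosome 15 from 61985391 to 61990374, plus strand) had 12451 and 7712 normalized counts in FO and 22683 and 30145 in MZ, a log2 difference of -1.42 (standard error 0.326, limma adjusted p = 0.0212), and the kinase Cdk4 and the factor E2f3 were also higher in MZ. The cyclin-dependent kinase inhibitors Cdkn1a and Cdkn2d were higher in FO, with 84.0 and 63.4 normalized counts in FO and 17.9 and 10.3 in MZ for Cdkn1a and 804 and 933 normalized counts in FO and 306 and 189 in MZ for Cdkn2d. The FO count was 2 without cKO FO replicate 1 or cKO MZ replicate 2, and the MZ count was 1 without cKO MZ replicate 1 or 2. The call of Myc was lost without cKO FO replicate 2, cKO MZ replicate 1 or cKO MZ replicate 2, with differences of between -1.62 and -1.07 there. The call of Cdkn1a was lost without cKO FO replicate 1 or cKO MZ replicate 2, with differences of between 1.97 and 2.14 there. The call of Prkcb was lost without cKO MZ replicate 1, with difference of 0.70 there. That of Prkcb was also lost with quantile normalization.

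Of 28 tested genes of endoplasmic reticulum folding and secretion, 3 were called higher in cKO MZ (10.7%, near the 8.18% of all genes tested) and 0 in FO, with a median difference of -0.04, and the MZ count was 3 whichever library was left out. The disulfide isomerase Pdia4 (ENSMUSG00000025823.9, chromosome 6 from 47796141 to 47813430, minus strand) had 5361 and 4751 normalized counts in FO and 31525 and 26003 in MZ, a log2 difference of -2.50 (standard error 0.116, limma adjusted p = 3.15e-05). The chaperone Mzb1, named for marginal zone B cells, had 186 and 177 normalized counts in FO and 1096 and 741 in MZ, and Edem1, of the degradation pathway for misfolded proteins, differed by -0.81. The regulator Xbp1 had 2632 and 2014 normalized counts in FO and 2532 and 2129 in MZ and overlapped. Of 9 tested plasma cell genes Prdm1, Mzb1 and Derl3 were higher in MZ (33.3%, beside 8.18% of all genes tested). Sdc1, the plasma cell surface proteoglycan, was higher in FO (11.1%, beside 5.54%), with 391 and 463 normalized counts in FO and 50.8 and 39.2 in MZ. The MZ count of these was 1 without cKO FO replicate 1, cKO MZ replicate 1 or cKO MZ replicate 2. Of 28 tested ribosome biogenesis genes 2 were called, Myc and Npm1, both higher in MZ, and neither passed without cKO FO replicate 2 or cKO MZ replicate 1. Of 13 tested genes of the amino acid response, Asns and Mthfd2 were called higher in MZ and Trib3 in FO, and at most 1 of the 3 was called when any one of the 4 cKO libraries was left out. The MZ calls were 7.14% of the ribosome biogenesis list, near the 8.18% of all genes tested. In the amino acid list they were 15.4%, and the FO call was 7.69%, beside 5.54% of all genes tested.

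Of 40 tested genes of DNA replication and mitosis, 18 were called higher in cKO MZ (45.0%, beside 8.18% of all genes tested), 0 in cKO FO, and 22 were not called, with a median difference of -1.40, and in WT 16 and 0 with a median of -1.42. The proliferation marker Mki67 (ENSMUSG00000031004.8, chromosome 7 from 135689784 to 135716361, minus strand) had 288 and 239 normalized counts in FO and 3028 and 1183 in MZ, a log2 difference of -2.85 (standard error 0.616, limma adjusted p = 0.0166). The topoisomerase Top2a (ENSMUSG00000020914.17, chromosome 11 from 98992943 to 99024189, minus strand) had 274 and 225 normalized counts in FO and 2096 and 837 in MZ, and the spindle motor Kif11 (ENSMUSG00000012443.4, chromosome 19 from 37376403 to 37421859, plus strand) had 54.9 and 47.3 normalized counts in FO and 673 and 195 in MZ. In all 3 both MZ libraries were above both FO libraries, with replicate 1 more than 2 times as high as replicate 2. Over the list, 38 of 40 genes were higher in MZ replicate 1 than in MZ replicate 2, while over all genes tested this held for 7019 of 14761. The transcription factors E2f1 and Mybl2 differed less between the MZ replicates, with 144 and 105 normalized counts in FO and 462 and 389 in MZ for E2f1 and 45.9 and 61.4 normalized counts in FO and 328 and 236 in MZ for Mybl2. Members at high level such as Pcna, Mcm2 and Mcm5 were not called, and the replication licensing gene Cdt1 had 4448 and 3567 normalized counts in FO and 1977 and 2287 in MZ, with both FO libraries above both MZ libraries and a limma adjusted p of 0.0929. The number of calls was 2 without cKO MZ replicate 1, 2 without cKO FO replicate 1, 3 without cKO FO replicate 2 and 20 without cKO MZ replicate 2. Without cKO MZ replicate 1 the median difference was -0.87. The calls of Mki67, Top2a and Kif11 were lost without cKO FO replicate 1, cKO FO replicate 2 or cKO MZ replicate 1, with differences of between -2.98 and -2.17, between -2.55 and -1.75 and between -2.91 and -1.91 there. The part of the erythroid and granulocyte RNA of this library in the difference was not tested.

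**Figure D4:**
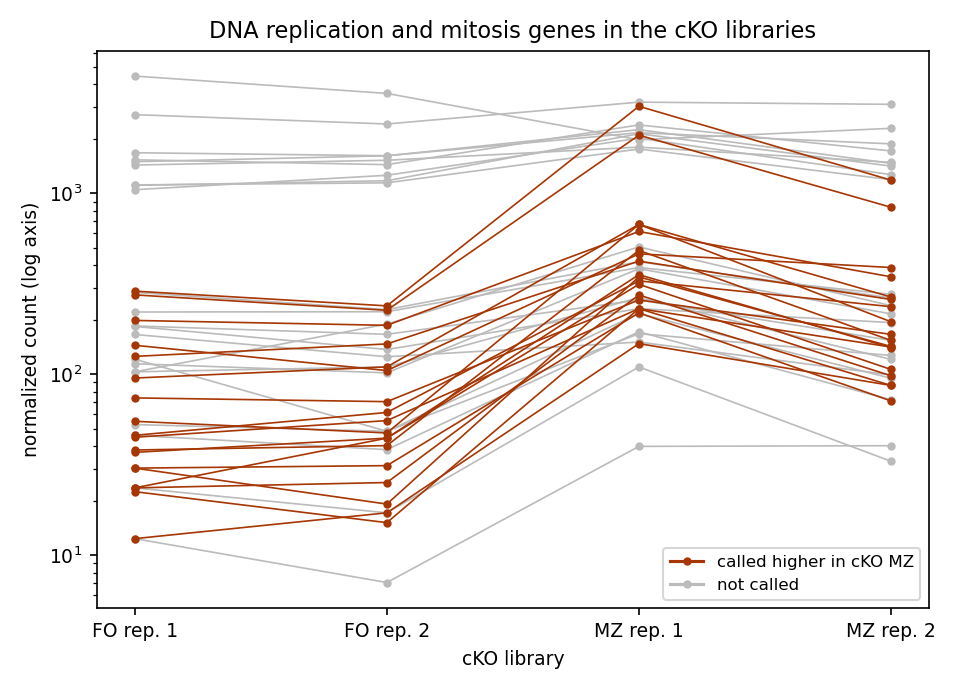
Normalized counts on a log axis (y) of the 40 genes of DNA replication and mitosis in the 4 cKO libraries (x), with a line for each gene, colored where it was called. The 18 called genes are higher in both MZ libraries than in both FO libraries, as for Mki67 at 3028 and 1183 in MZ and 288 and 239 in FO.

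The promoters of Mki67, Top2a and Kif11 are shown because each holds 2 motifs that are common in promoters of mitotic genes, the core TTTGAA of the cell cycle genes homology region (CHR) and the CCAAT box. Windows are again the 250 bases before the RefSeq start (GRCm38.p6), on the strand of the gene, none overlapping an annotated gene, with both motifs or their reverse complements in capitals. They lie at chr7:135716380-135716629 on the minus strand, at chr11:99024190-99024439 on the minus strand and at chr19:37376132-37376381 on the plus strand.
Mki67: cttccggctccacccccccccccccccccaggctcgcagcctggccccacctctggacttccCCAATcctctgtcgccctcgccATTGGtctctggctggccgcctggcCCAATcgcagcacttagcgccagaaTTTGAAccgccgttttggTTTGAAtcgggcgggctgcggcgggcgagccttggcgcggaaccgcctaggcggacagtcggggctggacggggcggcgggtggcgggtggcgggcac
Top2a: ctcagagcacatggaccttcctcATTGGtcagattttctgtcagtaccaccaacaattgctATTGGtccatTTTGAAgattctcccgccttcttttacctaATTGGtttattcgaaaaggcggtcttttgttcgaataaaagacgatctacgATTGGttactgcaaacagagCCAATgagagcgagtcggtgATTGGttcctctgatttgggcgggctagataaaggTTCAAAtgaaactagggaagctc
Kif11: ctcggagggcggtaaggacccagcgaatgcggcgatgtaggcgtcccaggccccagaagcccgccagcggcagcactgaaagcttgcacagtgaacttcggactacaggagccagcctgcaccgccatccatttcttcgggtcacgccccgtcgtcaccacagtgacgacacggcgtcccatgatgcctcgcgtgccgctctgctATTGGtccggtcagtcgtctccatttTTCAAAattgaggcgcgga
Of the 14 called genes of the list with 1 RefSeq promoter, 5 held TTTGAA, all 5 together with CCAAT, against 4.24% with both among the 7863 windows of tested genes. Over all 32 windows of the list, 8 held both. The CHR match nearest to the start was 98 bases before it in Mki67, 23 in Top2a and 19 in Kif11. The other called genes with a window held no TTTGAA in this window, which says nothing of the factors that bind there.

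Over all genes with at least 100 normalized counts in the higher subset, leaving out unnamed and immunoglobulin segment genes, those with the smallest p on the FO side were Pgap1, Mapk11, Sbk1, Cacna1i, Sorl1, L1cam, Bmf, B3gnt5, Slc4a11, Il4ra, Bcl6 and Rflnb. Sorl1, a sorting receptor of the endosome, had 20959 and 21201 normalized counts in FO and 7959.7 and 7594 in MZ, and the p38 kinase gene Mapk11 had 4282 and 3998 normalized counts in FO and 780.4 and 717 in MZ. Cacna1i, a T-type calcium channel subunit, had 9607 and 8421 normalized counts in FO and 844 and 628 in MZ, a log2 difference of 3.62 (standard error 0.202, limma adjusted p = 6.71e-05). The proapoptotic Bcl-2 family member Bmf had 1569 and 1555 normalized counts in FO and 417 and 485 in MZ. In all 4 the replicates of a subset were close and the subsets far apart. The widest FO differences among the genes at this level were those of Lifr, Ngfr, Slc4a11, Ryr2, Hcrtr2, Iqcn, Crisp3, Ahnak, Cacna1i, Myadm, Ndrg1 and Gad1, between 3.35 and 3.95. Several encode receptors or channels known from other tissues, such as the nerve growth factor receptor Ngfr with 177 and 186 normalized counts in FO and 14.0 and 10.3 in MZ and the ryanodine receptor Ryr2 with 372 and 246 normalized counts in FO and 22.9 and 18.6 in MZ.

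On the MZ side the smallest p belonged to S1pr3, Plxnd1, Nebl, Tbc1d9, Cd9, AW011738, Mfhas1, Rgs10, Myof, Marcks, Lair1 and Zc3h12c. Plxnd1 (ENSMUSG00000030123.15, chromosome 6 from 115954811 to 115995005, minus strand), a semaphorin receptor, had 247 and 219 normalized counts in FO and 7217 and 7765 in MZ, a log2 difference of -5.00 (standard error 0.146, limma adjusted p = 5.73e-06). Marcks, a protein kinase C substrate that binds actin, had 1076 and 1205 normalized counts in FO and 6326 and 6575 in MZ, and Lair1, an inhibitory collagen receptor, had 42.5 and 45.3 normalized counts in FO and 729.6 and 727 in MZ. The widest MZ differences at this level included those of Tspan15, Ube2e2, Adam28, Tsga13, Myo18b, Asb2, Ackr3, Zfp532, Ceacam2, Tmod2 and S1pr3. Ube2e2, a ubiquitin-conjugating enzyme, was carried by 2 reads in the 2 FO libraries and 394 in the 2 MZ libraries, a ratio of 188 with an exact 95% counting interval of 51.8 to 1561, which covers counting error only. Its level in FO was so low that the fitted difference depends on the pseudocount.

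Among the genes that the study names for these subsets, the serine protease Prss12 had 408 and 285 normalized counts in FO and 24.9 and 43.3 in MZ, and the stress-induced Gadd45g had 801 and 1349 normalized counts in FO and 219 and 322 in MZ, both higher in FO. The RNA-binding protein Zfp36l2, which promotes the decay of mRNA, had 15042 and 8915 normalized counts in FO and 3388 and 3467 in MZ, a log2 difference of 1.76 (standard error 0.216, limma adjusted p = 0.00158). The call of Gadd45g was lost without cKO MZ replicate 1, with difference of 1.69 there. The calls of Dusp4 and Mest were lost without any one of the 4 cKO libraries, with differences of between 1.93 and 2.96 and between -1.71 and -1.18 there. The call of Vpreb3 was lost without cKO FO replicate 2, cKO MZ replicate 1 or cKO MZ replicate 2, with differences of between 0.75 and 0.99 there. The call of Zfp385a was lost without cKO FO replicate 1, cKO FO replicate 2 or cKO MZ replicate 2, with differences of between -1.30 and -0.86 there. That of Mest was also lost with quantile normalization and without the filter on low values. The phosphatase Dusp4 and the surrogate light chain gene Vpreb3 were also called higher in FO, by 2.45 and 0.96. Dab2ip and Cecr2 had both FO libraries above both MZ libraries and did not pass the cutoff, with differences of 1.57 and 1.25 (limma adjusted p = 0.0656 and 0.0547). On the MZ side Zfp385a and the imprinted gene Mest were called, with 318 and 417 normalized counts in FO and 661 and 927 in MZ for Zfp385a and 53.7 and 59.4 normalized counts in FO and 129.6 and 188 in MZ for Mest. The chromatin insulator gene Ctcf and the transcription factor Irf8 were not called. These genes were chosen by the study on the same libraries, so their directions are not independent evidence.

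Some genes stood in 1 of the 4 cKO libraries at least 4-fold above each of the other 3 on the log2(normalized count + 1) scale and at 20 normalized counts or more. This held for 106 genes (0.718% of those tested), 48 in MZ replicate 1, 52 in MZ replicate 2, 6 in FO replicate 1 and 0 in FO replicate 2. In MZ replicate 1, 14 of the 18 tested erythroid markers and 10 of the 12 tested granulocyte markers were among them. The beta globin gene Hbb-bs (ENSMUSG00000052305.6, chromosome 7 from 103826534 to 103828096, minus strand) had 21.3 and 548 normalized counts in FO and 7318 and 305 in MZ, and Alas2, the erythroid enzyme of heme synthesis, had 8.96 and 71.5 normalized counts in FO and 810.3 and 43.3 in MZ. The calprotectin gene S100a9 had 5.60 and 23.2 normalized counts in FO and 604 and 27.8 in MZ, and the neutrophil granule gene Mpo had 6.72 and 10.1 normalized counts in FO and 149 and 6.19 in MZ. The 19 erythroid markers in the table summed to 419.9 and 1552 normalized counts in FO and to 16309 and 1085 in MZ, and the 20 granulocyte markers to 71.7 and 118 in FO and to 2280.5 and 159.8 in MZ. In the WT libraries the sums lay between 248 and 738 and between 103 and 141.

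The 48 genes were picked for a high level in cKO MZ replicate 1, which favors a call toward MZ in advance. Some passed the filter only through this library, such as Elane at 65.8 normalized counts there and 4.99 or less in every other library. Their calls are therefore a description and no test. Of the 48 genes, 6 passed the limma test as higher in cKO MZ, where 8.18% of all genes tested did. DESeq2 called 27 and edgeR 7 on the recovered reads. The 6 limma genes included Camp, Ngp, Kif14, Plcd3 and Tspan33, the last 3 named after their values were seen. Plcd3 was not limited to this library, with 15.7 and 6.04 normalized counts in FO against 535 and 125 in MZ. In the WT, where it was called as well, its MZ libraries held 897 and 380. Over the granulocyte list, 2 genes, Camp and Ngp, were called higher in MZ, with 0 called without cKO MZ replicate 1 or without either cKO FO replicate, and 10 without cKO MZ replicate 2. The hemoglobin genes themselves were not called. Igha, the alpha heavy chain gene, was also high in this library, with 1129 and 419.7 normalized counts in FO and 4687 and 887 in MZ, as was the processed pseudogene Gm4734, with 4.48 and 3.02 normalized counts in FO and 708 and 3.09 in MZ. Gm4734 is one of the genes the study names for MZ cells, and its level in the other 3 cKO libraries and in WT was 4.48 normalized counts or less.

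In cKO MZ replicate 2 the single-library genes were of another kind. Of the 52, 27 (51.9%) are annotated as pseudogenes, where pseudogenes are 7.66% of all genes tested, and reads of pseudogenes can be shared with their parent genes. Some passed the filter only through this library, such as Gm46317 at 84.6 normalized counts there and 0 in every other library. The share of pseudogenes is therefore no test. By level the 52 genes were led by Gm1821, Gm12912, Gm4977, Pax6 and Gm14892. The eye and brain transcription factor Pax6 (ENSMUSG00000027168.21, chromosome 2 from 105668900 to 105697364, plus strand) had 6.72 and 5.03 normalized counts in FO and 3.99 and 269 in MZ. Chosen after their values were seen, the neural genes Nr2f1, Otx2, Six3 and Tubb3 were at 184, 125, 114 and 135 normalized counts in this library and at most 17.9 in the other 3. Other neural genes were not particular to this library. Of the 52 genes, 15 were at 20 normalized counts or more in WT MZ replicate 1, against 1 in each of the other 3 WT libraries. Of these, Dpysl3, Dpysl5, Ncam1, Nsg1, Ptprz1 and Sox11 were at or above their level in cKO MZ replicate 2, as for Dpysl3 at 84.8 in WT MZ replicate 1 and 41.2 in cKO MZ replicate 2. The fibroblast collagen gene Col1a1 stood at 111 there and at 0 in the other 3 cKO libraries. Limma called 0 of the 52 between the subsets, with 8 at an unadjusted p under 0.05, while DESeq2 called 21 and edgeR 2 on the recovered reads.

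In cKO FO replicate 1 the 6 genes were Hsph1, Xist, Hspa1b, Hspa1a, Rnf125 and an immunoglobulin kappa pseudogene. The heat shock genes Hsph1, Hspa1b and Hspa1a encode chaperones, and Hsph1 had 14771 and 2962 normalized counts in FO and 1981 and 2569.6 in MZ. In WT, Hsph1 was at 14118 in FO replicate 1, 3107 in FO replicate 2, 9529 in MZ replicate 1 and 2663 in MZ replicate 2. It was high in 3 of the 4 libraries numbered 1 and in none numbered 2. Limma called 0 of these 6 between the cKO subsets, with 2 at an unadjusted p under 0.05, while DESeq2 called 4 and edgeR 2.

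**Figure D5:**
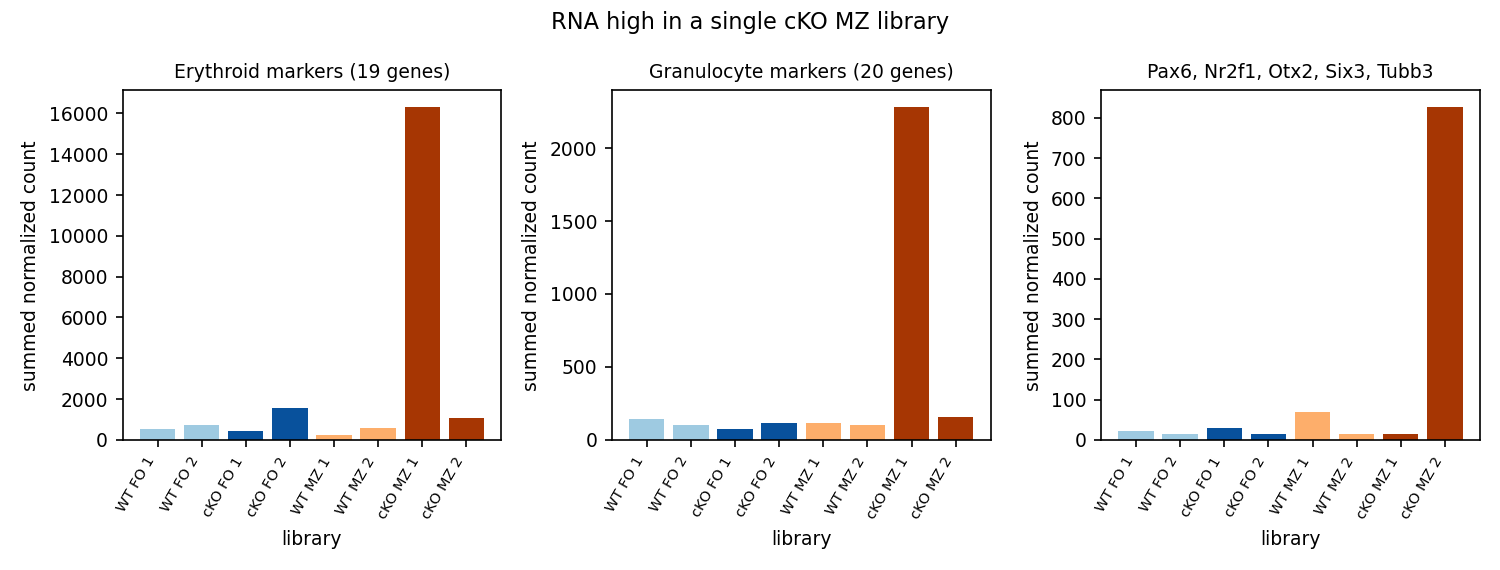
Summed normalized counts (y, linear from 0) of the erythroid markers, the granulocyte markers and 5 neural genes in each of the 8 RNA libraries (x). The erythroid sum of 16309 and the granulocyte sum of 2280.5 belong to cKO MZ replicate 1, and the 5 neural genes, chosen after their values were seen, sum to 827 in cKO MZ replicate 2, 69.3 in WT MZ replicate 1 and 29.1 or less in the others.

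Markers of other cell types were at differing levels. Called higher in MZ were 11.1% of the tested natural killer, 22.2% of the dendritic and 14.3% of the macrophage and monocyte markers. Of the 3 tested stromal and endothelial markers it was 33.3%. Over all genes tested this share was 8.18%. Of the dendritic cell markers 11.1% were called higher in FO, beside 5.54% of all genes tested. Of 15 T cell markers 3 were tested and 0 called, and their sum, mostly Lck, lay between 852 and 1122 in the cKO libraries, with Cd3e at 5 or fewer reads in each. Of 9 tested natural killer cell markers, the perforin gene Prf1 was called higher in MZ with 60.5 and 43.3 normalized counts in FO and 394 and 334 in MZ, while the natural killer receptor Ncr1 had 14.6 and 8.05 normalized counts in FO and 21.9 and 8.25 in MZ. Of 9 tested dendritic cell markers, Sirpa and Flt3 were called higher in MZ and Cd209a in FO, with 137 and 102 normalized counts in FO and 998 and 851 in MZ for Sirpa. The MZ count of these was 1 without cKO FO replicate 1, cKO MZ replicate 1 or cKO MZ replicate 2, and the FO call was lost without either cKO FO replicate or cKO MZ replicate 2. Of 14 tested macrophage and monocyte markers, Spic and Cd68 were called higher in MZ (0 of the list without cKO FO replicate 1, cKO MZ replicate 1 or cKO MZ replicate 2, and 1 without cKO FO replicate 2), and the list summed to 1581 and 1092 in FO and to 2839.6 and 1915 in MZ. The complement gene C1qa, a macrophage product, had 81.7 and 52.3 normalized counts in FO and 167 and 125 in MZ, higher in both MZ libraries and not called, and its part in the MZ differences was not tested. Of 3 tested stromal and endothelial genes the cadherin Cdh5 was called higher in MZ, though not without cKO FO replicate 1 or cKO MZ replicate 2, and Cxcl12 had 0 reads in the cKO libraries. The list sum of 7062 and 7474 in FO and of 5204 and 6085 in MZ was mostly Pecam1. Without Pecam1 it was 20.2 and 31.2 in FO and 87.7 and 287 in MZ. Most of the 287 was collagen RNA of cKO MZ replicate 2, with Col1a1, Col1a2 and Col3a1 at 111, 45.4 and 37.1 normalized counts. Each of these collagen genes was at 3.02 or less in the other cKO libraries. Cdh5 had 78.7 and 82.5 normalized counts in MZ. The one megakaryocyte marker tested was not called.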

How the data were processed

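RNA of the sorted FO and MZ cells, from WT and from cKO spleens, was depleted of ribosomal RNA and sequenced as single-end reads of 50 bases. Per the submitters' processing notes and the study's methods, reads were aligned to mm10 with HISAT2, counted per gene with featureCounts or HTSeq and scaled with DESeq2 size factors. Versions, gene annotation and strand setting are not given in the sources used here, so genes that overlap and near-identical copies remain uncertain. The deposited table holds normalized counts (signal, reads divided by a size factor) made by the authors for 8 libraries. Every value was a whole number of reads within 0.01 once multiplied by its size factor, and the libraries held 21546552 to 25083552 reads on genes. The 8 ATAC samples were not analysed here.

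Genes with a mean of at least 10 normalized counts were tested on log2(normalized count + 1) with limma 3.58.1 (R 4.3.3, empirical Bayes with a trend), with a mean for each of the 4 groups, and with the contrasts cKO FO minus MZ, WT FO minus MZ and their interaction. Fold changes on this scale understate the change of genes at low level. DESeq2 1.42.0 and edgeR 4.0.16 (quasi-likelihood) on the recovered reads, pseudocount 0.5, no filter, quantile normalization, 4 libraries only, other fold cutoffs, no X or Y genes, a replicate block and leaving out each library were alternatives. Data were simulated for cKO FO against cKO MZ with 200 of the 14761 genes changed. There limma found 47 of 100 genes changed 2-fold and 74 of 100 changed 4-fold, with 11 false calls. On the same data DESeq2 gave 38 false calls and edgeR 11. Far more genes were called in the real comparison (818 and 1208), and the adjusted p depends on that share. The simulated shares are therefore not the power of the real comparison.

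The members, gene lists and rule for named genes were chosen with earlier results of these data known. Named were the markers, list members, for each direction the 12 genes with the smallest p and the 12 with the largest difference (libraries apart, mean of at least 100 in the higher group, not high in a single library, no unnamed or immunoglobulin segment genes), the 5 highest genes of each single library, the 5 smallest interaction p in each direction, genes the study names, and Gtf2i. Some genes that this rule or the lists would name are not reported here. Promoters are RefSeq sequences (GRCm38.p6), found for 9833 of the genes tested, of which 7863 had exactly 1. Other intervals of counts are exact and cover counting error only.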

Additional observations from a re-analysis of the deposited data

Results flagged for a closer look

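In 2 of the 2287 genes called in either genotype, the FO and MZ libraries were apart in opposite directions in cKO and WT. Values without a genotype are those of the cKO. Gpr152, an orphan G protein-coupled receptor, had 11.2 and 11.1 normalized counts in FO and 15.9 and 15.5 in MZ, and 16.0 and 13.3 in WT FO and 4.82 and 4.53 in WT MZ, all low levels. Its interaction of genotype and subset was -1.92 on the log2 scale, with a 95% interval of -3.25 to -0.59. The tubulin gene Tubb2b had 122 and 94.6 normalized counts in FO and 56.8 and 59.8 in MZ, and 99.8 and 126 in WT FO and 166 and 129.5 in WT MZ, with an interaction of 1.26 and an interval of 0.47 to 2.04. Both had a limma adjusted p of 1.00, so neither difference between the genotypes passed correction over the 14761 genes tested.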

How the results depend on the processing

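With 2 libraries a group, the numbers of calls followed single libraries. Leaving out each of the 8 libraries in turn gave 435 to 868 genes higher in cKO FO, 638 to 1275 higher in cKO MZ, 383 to 545 of the WT FO program and 559 to 870 of the WT MZ program. A 2-fold cutoff gave 444 genes higher in cKO FO and 325 of the WT FO program, and no fold cutoff 1371 and 973. Fitting the 4 libraries of a genotype alone left 358 of the WT FO program and 590 of the WT MZ program, with the lists of both genotypes refitted. The other alternatives kept these counts within 1.5 times, and the interaction at 0 calls in each fit that could give it. At 8-fold, 26 genes were high in cKO MZ replicate 1 alone and 34 in replicate 2.

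The replicate block gave 1098 genes higher in cKO FO and 1601 in cKO MZ. Replicate numbers marked no shared animal or day in the labels, so the numbers were not taken as pairs. Deviations of same-numbered FO and MZ libraries had a correlation across genes of -0.0015 in cKO and of 0.591 in WT. A factor shared by replicate number in WT was not modelled in the main fit, and its part in the WT programs and the interaction was not tested. Among named genes that were not called, the sign turned as libraries were left out for Cxcr5 (-0.29 to 0.064), Gm4734 (-7.24 to 0.20), Mpo (-4.02 to 0.36), Xbp1 (-0.21 to 0.18), Irf4 (-0.38 to 0.23), Pax6 (-5.31 to 0.45) and Ncr1 (-0.95 to 0.36, and 0.10 with quantile normalization). The cause was not tested. Of 952 counts of called genes in lists over the alternatives, 122 moved by more than 1.5 times. No scaling moved the median of all genes by more than 0.04.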

Other observations

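Values are again those of the cKO libraries. Immediate early genes, which answer signals and handling within minutes, divided the 2 cKO MZ libraries. Of 22 tested, limma called 1 higher in cKO FO, Ier2, and 1 higher in cKO MZ, Egr2. Each is 4.55% of the list, below the 5.54% and 8.18% of all genes tested. Of the 22, 0 were higher in MZ replicate 1 than in MZ replicate 2, where 7019 of 14761 genes tested were. Fos had 11769 and 15286 normalized counts in FO and 14846 and 15779 in MZ, and Egr1 had 2384 and 2320.1 normalized counts in FO and 2479.8 and 4275 in MZ. Egr2 had 490.4 and 759 normalized counts in FO and 1058 and 1789 in MZ. The call of Egr2 was lost without cKO FO replicate 1 or cKO MZ replicate 2, with differences of between -0.86 and -0.79 there. Over the 8 fits that left out 1 library, 0 to 3 genes of the list were called in FO and 0 to 2 in MZ, and the fit of the cKO libraries alone called 3 and 5. The list summed to 197086 and 190371.6 normalized counts in FO and to 173822 and 225635 in MZ.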
